A study of Glycine max and Zea mays with 6 samples.

Results

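The 10 genes described here act in nodulation, the formation of nitrogen-fixing organs on legume roots, and were examined in soybean leaf, where nodules do not form. They are the soybean genes with the symbols NARK, NFR5A, SYMRK-ALPHA, NINA, ENOD40A, ENOD40B, N-56, N-70, NOD33 and LB1 in the RefSeq gene table of Glycine_max_v4.0. All 10 were found, among 46816 protein-coding genes on the 20 chromosomes. ENOD40A and ENOD40B have the same position in that table, so the 10 symbols stand for 9 loci. Leaves of Glycine max accession William82, about 10 days old and untreated, were profiled by chromatin immunoprecipitation and sequencing (ChIP-seq) for H3K4me3, H3K56ac and H3K36me3, with 1 library per mark. These 3 of the 6 samples of the series are used, and all 3 share the same tissue, age and accession. The values are the positions of called regions, with no score or read count, so depth is unknown, no value has a replicate check and no test between genes was made. Where no region is reported, signal too weak for a call may still have been present.

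In nodulation, root cells sense bacterial Nod factors through receptor kinases such as NFR1 and NFR5, and the receptor kinase SYMRK and the transcription factor NIN pass the signal on to nodule formation. Nodulins are proteins made mainly in the nodule, and leghemoglobin, the best known of them, binds oxygen there. The shoot takes part through NARK, a leucine-rich repeat receptor kinase that acts in leaves, responds to CLE peptides from the root and holds down the number of nodules. Of the marks, H3K4me3 and H3K56ac are typical of the first nucleosomes of active plant genes, and H3K36me3 is laid down along the transcribed body.

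A gene was counted as marked when a called region overlapped the gene or the 1 kb on either side of it by at least 1 bp. By this rule 3 of the 10 genes had H3K4me3, and the background among all protein-coding genes was 74.5%. H3K56ac was called at 1 of the 10, against 70.9% of protein-coding genes. H3K36me3 was also called at 1 of the 10, against 53.3%. None of the 10 had all 3 marks, which 51.3% of protein-coding genes had. No mark was called at 6 of the 10, in 5 loci, against 20.9%. The median covered length over all protein-coding genes was 936 bp for H3K4me3, 819 bp for H3K56ac and 800 bp for H3K36me3, and over the 10 genes each median was 0 bp. Short genes more often lacked marks, with no mark at 42.0% of protein-coding genes under 2 kb. Of the 10 genes 4 were under 2 kb, the doubled ENOD40 entry included, and 3 of these 4 were unmarked. The part of length in these counts was not tested.

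**Figure D1:**
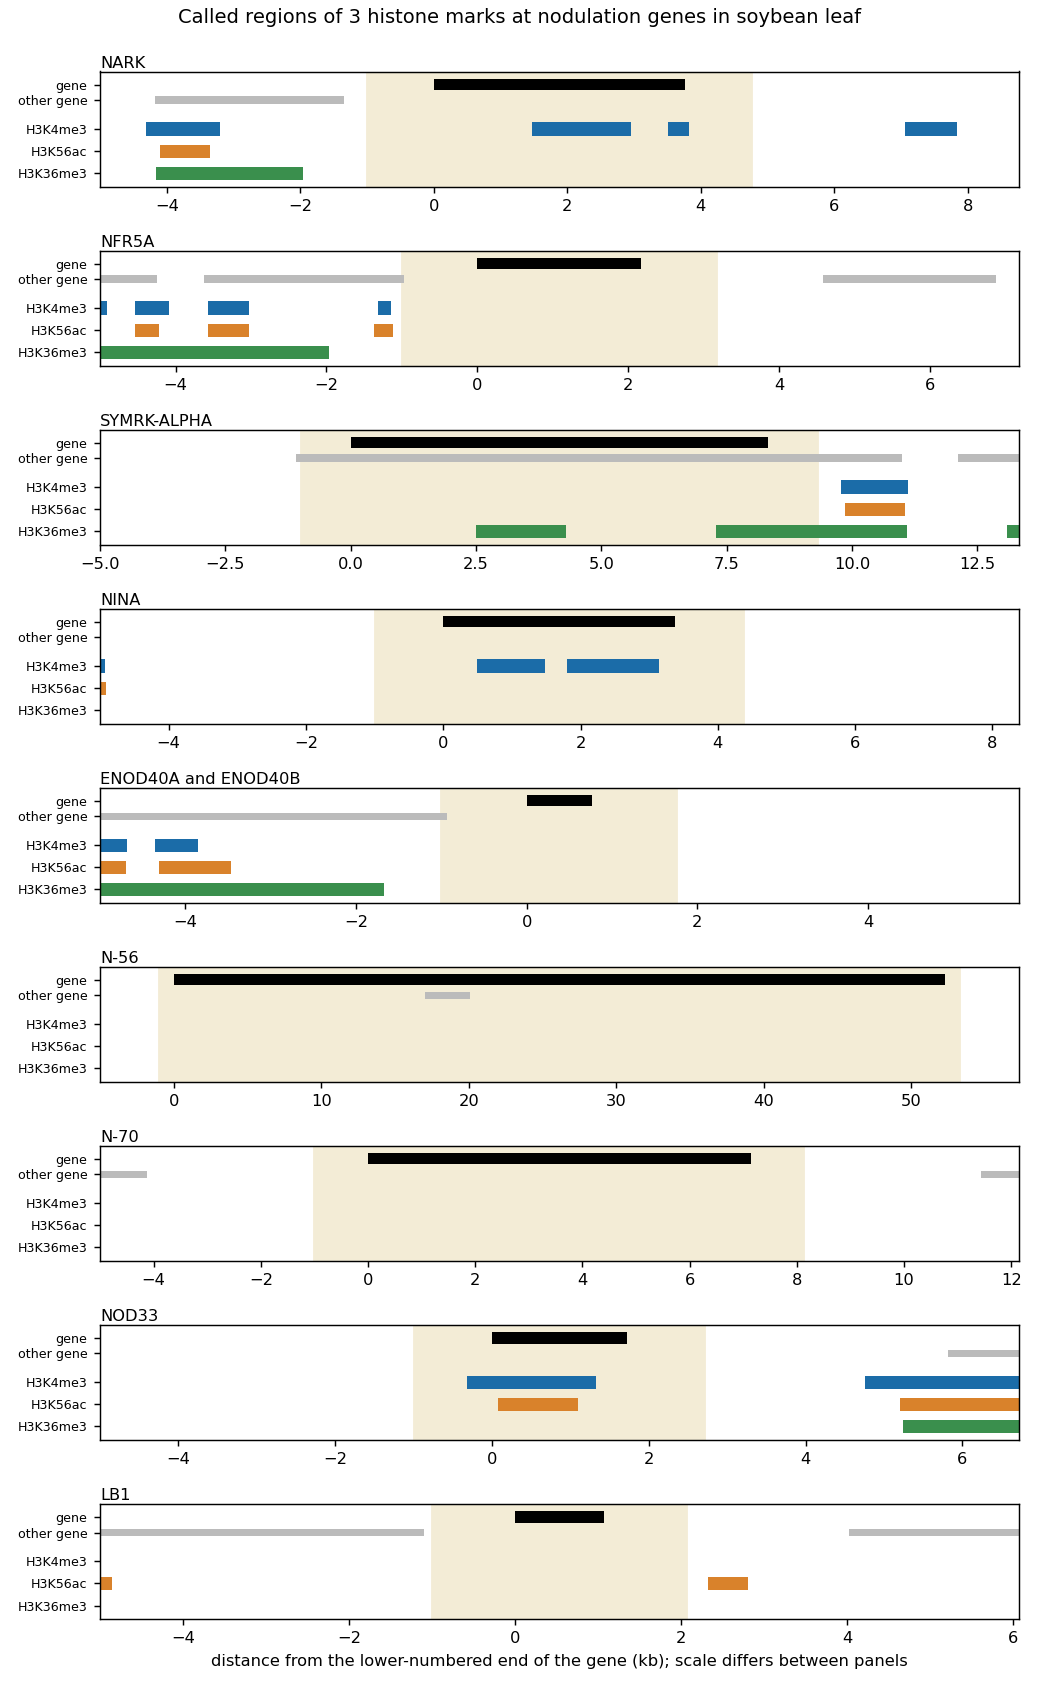
Called regions of H3K4me3 (blue), H3K56ac (orange) and H3K36me3 (green) at the 9 loci, with the gene in black, other annotated genes in grey and the gene with 1 kb either side shaded. The x axis is the distance in kb from the lower-numbered end of the gene, with 5 kb shown on each side and a different scale in each panel. Regions inside the shaded window are seen at NARK, SYMRK-ALPHA, NINA and NOD33.

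The gene that acts in the shoot, NARK on chromosome 12, carried H3K4me3 alone. Its H3K4me3 covered 1796 bp in total, of which 1734 bp lay in the gene, 46.1% of its length of 3763 bp. There was no H3K56ac and no H3K36me3 in the gene or within 1 kb of it. Of the 3 members with H3K4me3, NARK and NINA lacked H3K56ac, as did 9.82% of all protein-coding genes with H3K4me3. H3K4me3 without either other mark was found at 6.54% of protein-coding genes. Among these 3060 genes the median covered length was 577 bp, and 3.40% had as much H3K4me3 as NARK.

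The H3K4me3 of NARK formed 2 peaks. The longer peak, at 2877038 to 2878511 on chromosome 12 in the coordinates of the deposited list, was 1474 bp long and lay wholly inside the gene, from 1479 bp to 2952 bp past its lower-numbered end. Its midpoint was 1546 bp from the nearer end of the gene. Of 40363 H3K4me3 peaks with a midpoint in a protein-coding gene, 6.96% lay as far or farther from an end, and the median distance was 529 bp. The shorter peak, at 2879062 to 2879383, was 322 bp long and crossed the upper-numbered end of the gene. The gene table gives no strand, so the start and the end of a gene cannot be told apart here.

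Long H3K4me3 peaks without H3K56ac were uncommon in this leaf. Of 51142 H3K4me3 peaks on the chromosomes, 17.6% had no H3K56ac overlap, and the median length was 364 bp for these and 962 bp for the others. The longer NARK peak was as long as the top 3.24% of the peaks without H3K56ac. Of 11 other protein-coding genes within 50 kb of NARK, 10 had H3K4me3, 10 had H3K56ac and 9 had H3K36me3. The shares of all protein-coding genes were 74.5%, 70.9% and 53.3%. The nearest of the 11, LOC100500153, lay 1340 bp from NARK and had all 3 marks. The nearest H3K56ac to NARK was 3348 bp away and the nearest H3K36me3 1959 bp away, both at that neighbour.

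CLV1A, the soybean relative of NARK that shares its receptor kinase type, had more marks but less H3K4me3. Its H3K4me3 covered 1299 bp in 3 peaks of 533, 302 and 464 bp. H3K56ac covered 485 bp in 2 peaks of 322 and 163 bp, each overlapping an H3K4me3 peak. H3K36me3 was not called at CLV1A. Both genes thus had H3K4me3 inside the gene and across the upper-numbered end, while H3K56ac was called at CLV1A and not at NARK.

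The root receptor kinases among the members, NFR5A and SYMRK-ALPHA, had neither H3K4me3 nor H3K56ac in the gene or within 1 kb. NFR5A on chromosome 11, a LysM receptor kinase for Nod factors of 2170 bp, had no mark at all. The regions nearest to it lay just beyond the window. An H3K56ac peak of 243 bp was 1124 bp away, an H3K4me3 peak of 173 bp was 1148 bp away and an H3K36me3 region of 5200 bp was 1963 bp away, all on the lower-numbered side. Each of these regions overlapped the neighbouring gene LOC100779372, which lay 976 bp from NFR5A and had all 3 marks. On the other side the nearest region of any mark was 14175 bp away. Its relative NFR5B, on chromosome 1, was marked thinly. NFR5B had 2 H3K4me3 peaks of 199 and 182 bp and an H3K56ac peak of 148 bp, all inside the gene. Of all protein-coding genes with the mark, 91.5% had at least as much H3K4me3 as NFR5B and 99.2% at least as much H3K56ac.

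SYMRK-ALPHA on chromosome 1, a leucine-rich repeat receptor kinase of 8320 bp, was the member with H3K36me3. The mark covered 3829 bp of the window and 2829 bp of the gene, 34.0% of its length, without H3K4me3 or H3K56ac. H3K36me3 alone was found at 0.863% of protein-coding genes. The mark lay in 2 regions. The first, at 2010001 to 2011800, was 1800 bp long and wholly inside the gene. The second, at 2014801 to 2018600, was 3800 bp long and had 1029 bp in the gene, running on to 2771 bp past its upper-numbered end.

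SYMRK-ALPHA lies within another annotated protein-coding gene, LOC100785557, of 12080 bp. That gene starts 1091 bp before SYMRK-ALPHA and ends 2669 bp after it. It had all 3 marks, with 5498 bp of H3K36me3 inside it. Both H3K36me3 regions of SYMRK-ALPHA overlap it. Its H3K4me3 peak of 1339 bp and its H3K56ac peak of 1192 bp both crossed its upper-numbered end, 1456 and 1540 bp beyond SYMRK-ALPHA. Marks of the 2 overlapping genes cannot be told apart from these lists, and with regions that overlap another gene left out SYMRK-ALPHA had no mark.

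SYMRK-BETA, the relative on chromosome 9, has no other gene within 1 kb. Since the H3K36me3 at SYMRK-ALPHA cannot be assigned to that gene alone, the 2 relatives cannot be contrasted in this mark. At SYMRK-BETA H3K56ac covered 1077 bp and H3K4me3 279 bp, with no H3K36me3. Both marks sat mainly at the lower-numbered end, with an H3K4me3 peak of 273 bp and an H3K56ac peak of 585 bp across it. A longer pair of peaks, 1934 bp of H3K4me3 and 1956 bp of H3K56ac, reached the edge of the window by 6 and 24 bp.

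**Figure D2:**
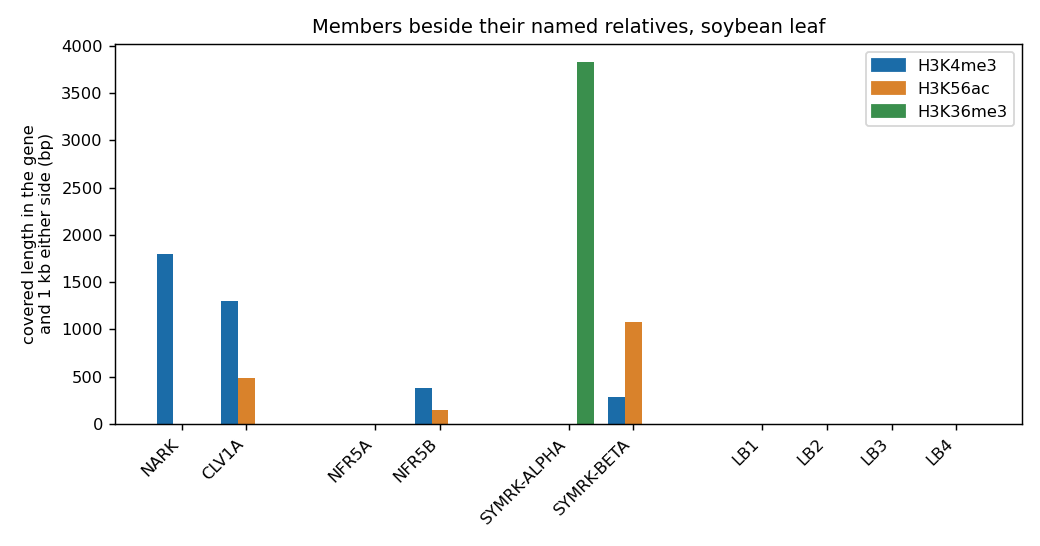
Covered length in bp (y axis) of H3K4me3, H3K56ac and H3K36me3 in the gene and 1 kb either side, for NARK, NFR5A, SYMRK-ALPHA and LB1 beside their named relatives. Each relative of a receptor gene has H3K56ac (485 bp at CLV1A, 148 bp at NFR5B and 1077 bp at SYMRK-BETA) where the member has none, and the 4 leghemoglobin genes have no covered length in any mark. The H3K36me3 at SYMRK-ALPHA lies in regions that also overlap LOC100785557.

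NINA on chromosome 4, a gene of the NIN transcription factor that drives nodule formation, also carried H3K4me3 alone. Its covered length of 2333 bp lay wholly in the gene and took up 69.0% of its 3380 bp. Of protein-coding genes with H3K4me3, 3.21% had as much, and of those with H3K4me3 alone 0.621%. A peak of 987 bp at 72896 to 73882 began 488 bp inside the lower-numbered end. A second peak of 1346 bp, at 74205 to 75550, ran from 1797 to 3142 bp past that end. Their midpoints were 29.0% and 73.1% of the way along the gene. Neither peak overlapped H3K56ac, and among H3K4me3 peaks without it 12.2% were as long as the first and 4.35% as long as the second. The nearest H3K56ac lay 4909 bp away and the nearest H3K36me3 5008 bp away. All 8 other protein-coding genes within 50 kb had H3K4me3 and H3K36me3, and 7 of them had H3K56ac. Of all protein-coding genes, 74.5%, 53.3% and 70.9% had these marks.

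**Figure D3:**
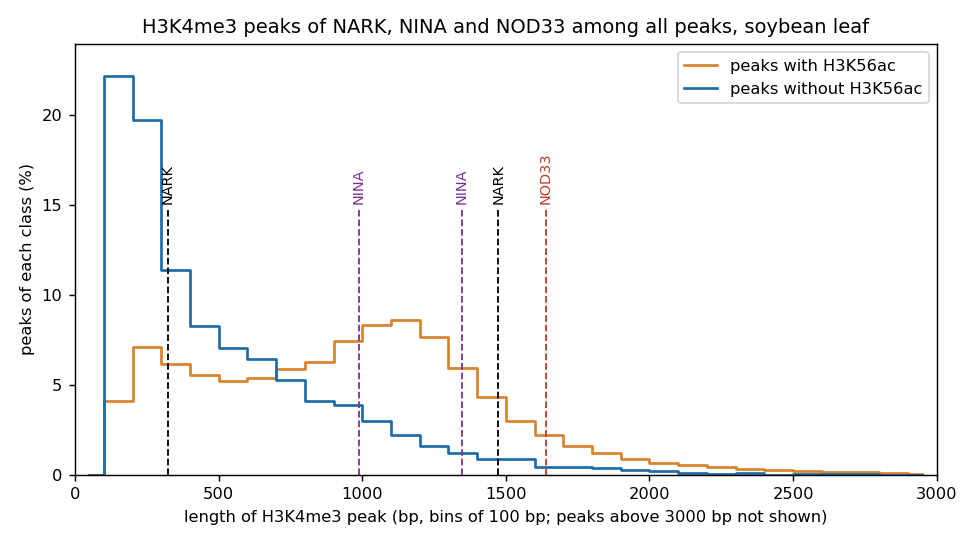
Length of H3K4me3 peaks in bp (x axis, bins of 100 bp) as a percentage of the peaks with and without H3K56ac (y axis), with dashed lines at the peaks of NARK, NINA and NOD33. The NARK and NINA peaks have no H3K56ac; 3 of these 4, of 987, 1346 and 1474 bp, lie far above the median of 364 bp of their class, and the NOD33 peak of 1640 bp has H3K56ac.

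Among the nodulins, NOD33 on chromosome 10 was the marked gene. This gene of 1715 bp had an H3K4me3 peak of 1640 bp at 47789046 to 47790685 and an H3K56ac peak of 1024 bp at 47789438 to 47790461, and it lacked H3K36me3. The H3K4me3 peak began 315 bp before the lower-numbered end and covered 77.3% of the gene. The acetylated stretch lay wholly inside the H3K4me3 peak and covered 59.7% of the gene. This combination was found at 15.9% of protein-coding genes. No other gene lay within 1 kb of it, and its peaks overlapped no other annotated gene. The nearest H3K36me3, 3526 bp away, lay at PSAD, a gene for a photosystem I subunit that had all 3 marks.

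The early nodulin locus ENOD40A and ENOD40B on chromosome 2, which gives a short RNA known for very small reading frames, had no mark over 765 bp or the 1 kb around it. The nearest H3K36me3 was 1672 bp away, the nearest H3K56ac 3467 bp and the nearest H3K4me3 3851 bp. All of these lay at LOC100801114, a gene with all 3 marks that ends 933 bp from the locus. On the other side no region of any mark was called for 23209 bp.

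N-70 on chromosome 18, a nodulin of the transporter type, had no mark over its 7138 bp. The nearest H3K4me3, H3K56ac and H3K36me3 lay 13809, 13817 and 13999 bp away. The stretch without any region around it was 40.0 kb long, and 10.2% of protein-coding genes lay in a stretch as long or longer. Its closest annotated genes, LOC121174019 and LOC100817831, were also unmarked. Within 50 kb, 7 of 10 protein-coding genes had H3K4me3, against 74.5% of all protein-coding genes.

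N-56 on chromosome 13, a nodulin known as a relative of the enzyme 2-isopropylmalate synthase, stood in the longest unmarked stretch of the members. Its annotated length is 52262 bp, which 0.141% of protein-coding genes reach. No region of any mark was called over the gene, and 14.6% of the 673 protein-coding genes of 20 kb or more were also without a mark. The nearest H3K56ac was 136302 bp away, the nearest H3K4me3 468876 bp and the nearest H3K36me3 556314 bp. The stretch without any region was 702 kb, and 0.511% of protein-coding genes lay in one as long. Both other protein-coding genes within 50 kb were unmarked. LOC102668794, a long non-coding RNA gene of 3033 bp, lies within N-56 and was also unmarked. The 2 Mb around N-56 held 26 H3K4me3 peaks, where the other loci had 153 to 290, so the fit of the lists to the gene table rests on few peaks here. Of these 26, 23.1% had a midpoint at most 500 bp from an end of a protein-coding gene, against at most 3.85% after shifts of 20 or 100 kb.

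LB1 on chromosome 10, a leghemoglobin gene of 1065 bp, had no mark. The nearest region was an H3K56ac peak of 487 bp, 1254 bp past its upper-numbered end, at 43084389 to 43084875. That peak overlapped no annotated gene. The nearest H3K4me3 was 8539 bp away and the nearest H3K36me3 11671 bp. LB1 stands in a group with the pseudogene LB and the genes LB2 and LB3 over 15.0 kb, with no other annotated gene between them. In those 15.0 kb this single H3K56ac peak was the sole region called, and none of the 4 genes had any covered length. LB4, on chromosome 20, was also unmarked in all 3 lists.

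**Figure D4:**
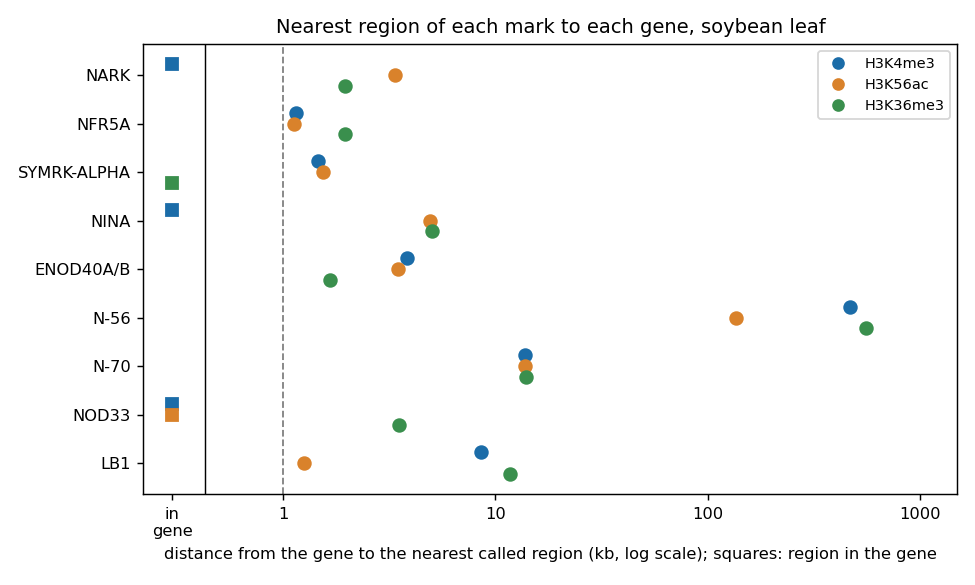
Distance in kb on a log scale (x axis) from each of the 9 loci to the nearest called region of H3K4me3, H3K56ac and H3K36me3, with squares for regions that overlap the gene and a dashed line at 1 kb. N-56 is farthest from all 3 marks, at 136302 bp or more, and N-70 follows for each of them, while NFR5A has all 3 marks between 1124 and 1963 bp away.

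Set side by side, the single shoot-acting gene and the 9 root and nodule genes did not fall into separate patterns. NARK and the root gene NINA both had H3K4me3 alone, mostly or wholly inside the gene. NOD33, a nodulin, was the member with the most different marks, at 2, whereas NINA had the longest H3K4me3, at 2333 bp. SYMRK-ALPHA had the longest cover by a single mark, 3829 bp of H3K36me3, in regions that also overlap LOC100785557. With 1 gene on the shoot side, no comparison of the groups could be tested.

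Other genes of the pathway were taken from 3 lists of symbols. Of 36 symbols of receptors and signalling, 5 matched a gene: NFR1B, NFR5B, SYMRK-BETA, NSP1 and NSP2. All 5 had H3K4me3 and 4 had H3K56ac, with H3K36me3 at none, where the shares of all protein-coding genes were 74.5%, 70.9% and 53.3%. In so short a list, the first and second of these counts are near what protein-coding genes have in general. NFR1B, the partner receptor of NFR5, had the longest H3K56ac at 1145 bp and 1033 bp of H3K4me3, nearly all at its upper-numbered end. NSP2, a GRAS transcription factor of the pathway, had H3K4me3 of the same length, 1033 bp, in 2 peaks of 833 and 200 bp, each overlapping H3K56ac. NSP1, its partner, had H3K4me3 alone over 456 bp.

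The list of autoregulation and host restriction matched 5 further genes. The CLE peptide genes RIC1, RIC2 and NIC1, whose products act through NARK, had no mark, and they are short, at 786, 906 and 845 bp. Of all protein-coding genes under 2 kb, 42.0% had none either. RJ2, a resistance gene that limits which bacteria form nodules, was the sole gene of this list with all 3 marks, with 819 bp of H3K4me3, 867 bp of H3K56ac and 600 bp of H3K36me3. These overlapped each other about 70% of the way along the gene, with midpoints at 70.3%, 70.6% and 72.6%. CLV1A, described above, had the longest H3K4me3 of the list.

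Of 51 nodulin symbols, 25 matched, giving 20 genes beside the members. No mark was called at 11 of them, against 20.9% of all protein-coding genes. Of the 13 nodulins under 2 kb, 9 were unmarked, against 42.0% of protein-coding genes under 2 kb. Among the 20 genes, H3K4me3 was called at 7, H3K56ac at 6, H3K36me3 at 5 and all 3 marks at 4. The shares of all protein-coding genes were 74.5%, 70.9%, 53.3% and 51.3%. The 4 with all 3 marks were PEPC16, UR2, DMT1 and SAT1, the last of which may be a clash of symbols. PEPC16, a phosphoenolpyruvate carboxylase gene, had the longest covered length of each mark, at 2728 bp of H3K4me3, 2878 bp of H3K56ac and 6106 bp of H3K36me3. The symbol SAT1 also matched LOC100790824 through a synonym, and that gene, whose synonyms include the word nodulin, had no mark. Nothing in the table names the gene with the symbol SAT1 a nodulin, and without it 3 of 19 genes had all 3 marks. The symbols and synonyms of PEPC16 and DMT1 hold no nodulin name either. Of the 4 genes with all 3 marks, UR2 alone has one, N-35. The 2 genes that matched the uricase nodulin N-35 differed. UR2 had 901 bp of H3K4me3, 717 bp of H3K56ac and 3600 bp of H3K36me3, whereas UR9 had H3K4me3 alone over 1102 bp.

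The tissue label was compared with marker genes. All 9 leaf marker genes had H3K4me3 and H3K56ac, against 74.5% and 70.9% of all protein-coding genes. All 3 marks were called at 8 of the 9, against 51.3%. Among these were RBCS1 for the small subunit of Rubisco and RCABETA for Rubisco activase. Of 9 seed marker genes, 8 had H3K4me3, 7 of them without either other mark, and none had H3K36me3. Over all protein-coding genes the shares were 74.5% with H3K4me3, 6.54% with H3K4me3 alone and 53.3% with H3K36me3, so the count with H3K4me3 was near the general share. The list of root nodule markers held 7 genes, all of them counted above, LB1 as a member and the others in the nodulin list. H3K4me3 was called at 2 of the 7, H3K56ac at 2, H3K36me3 at 1 and no mark at 4. Of all protein-coding genes, 74.5%, 70.9%, 53.3% and 20.9% fell in these classes. The 4 unmarked genes were the leghemoglobin genes, while UR2 had all 3 marks, UR9 had H3K4me3 alone and N-26, a membrane channel nodulin, had 353 bp of H3K56ac alone. H3K4me3 alone, as seen at NARK and NINA, was also called at genes of another organ in this leaf.

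**Figure D5:**
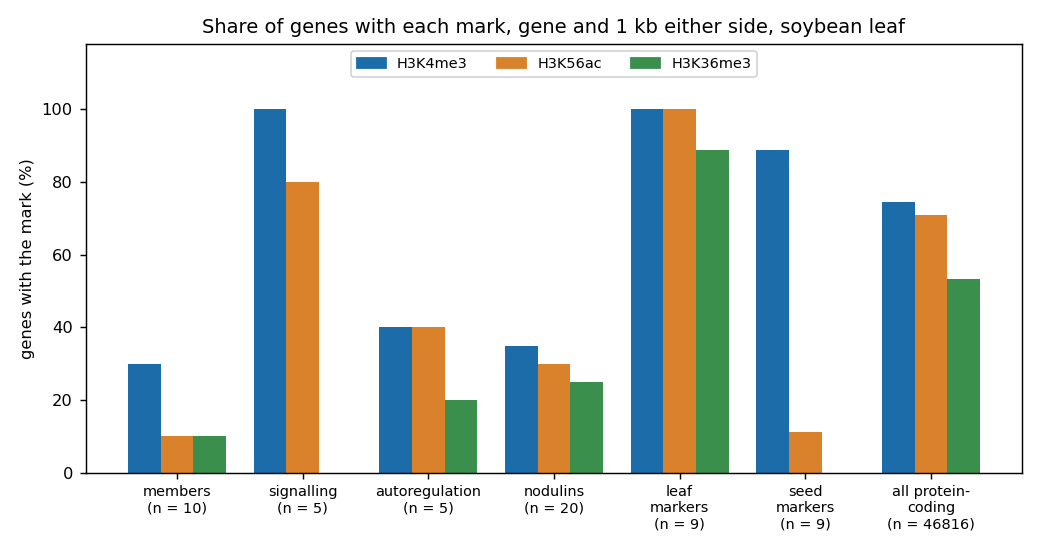
Percentage of genes with H3K4me3, H3K56ac and H3K36me3 in the gene or 1 kb either side (y axis) for the 10 members, the 3 pathway lists without the members, the leaf and seed markers and all protein-coding genes. The members have 3, 1 and 1 of 10 genes marked, below the 74.5%, 70.9% and 53.3% of all protein-coding genes, and the leaf markers have 9, 9 and 8 of 9.

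The genes with the most similar marks were sought among 2348 protein-coding genes with a symbol, by the Euclidean distance between the 3 covered shares of the window. This compares 3 values per gene, so many genes can match closely. For NARK, with 31.2% of the window under H3K4me3, they were LRK1, PM32 and GPPS, with 31.0%, 31.4% and 30.8%. For NINA, with 43.4%, they were PHT1-13, MP2 and AT133, with 43.5%, 43.8% and 41.8%. None of these 6 genes had H3K56ac or H3K36me3. For NOD33, with 44.1% under H3K4me3 and 27.6% under H3K56ac, they were PPCK4, AOS1 and GRF20. For SYMRK-ALPHA, with 37.1% under H3K36me3, the nearest gene, NMHC5, had 40.9% and stood 5.2 percentage points away. Both H3K36me3 regions of SYMRK-ALPHA also overlap LOC100785557, so this profile cannot be assigned to SYMRK-ALPHA alone.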

How the data were processed

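The deposited values used here are positions, with no score: the authors deposited 1 list of called regions per sample, with chromosome, start and end in bp. Tools listed without version in the submitters' processing notes are MACS2, SICER, Picard, Bowtie2 and Trimmomatic. What each tool did, with which threshold and input, and the soybean build were not given in the sources used here. Input and maize samples were not used here. Starts were moved to counting from 1, and the ends of the H3K36me3 regions, all on a grid of 200 bp, by 1 bp. The 20 chromosomes held 51142 H3K4me3, 60424 H3K56ac and 32195 H3K36me3 regions.

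Genes came from the RefSeq table of Glycine_max_v4.0, whose coordinates are not printed since the build of the lists is not named. In the 2 Mb around each of the 9 loci, 23.1% to 53.6% of H3K4me3 midpoints were at most 500 bp from an end of a protein-coding gene, higher than after shifts of 20 or 100 kb at every locus. Small differences between builds would pass this check.

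Covered lengths were computed with Python 3.11.15 and pandas 2.3.3, by code tested on simulated intervals. There was no test, since each mark had 1 library. The members and lists were chosen with earlier results of these data known. The rule named the members, list genes with the longest covered length or all 3 marks, genes within 1 kb of a member and the 3 nearest profiles per marked member; other genes were named after their values were seen. Symbols were matched by symbol or synonym, ignoring case. Promoter motifs were planned and not searched, since no sequences were used here. Alternatives were windows of 500 bp, 2 kb and none, at least 200 bp covered, the longer 50% of each list and regions overlapping another gene left out; ENOD40A and ENOD40B as 1 locus was added after seeing the data.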

Additional observations from a re-analysis of the deposited data

How the results depend on the processing

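The counts of marked members were the same with windows of 500 bp, with the gene body alone, with at least 200 bp covered and with the longer 50% of each list. They moved with 2 kb either side. There H3K4me3 was called at 5 of the 10 genes, H3K56ac at 4, H3K36me3 at 5 and no mark at 2. Shares of all protein-coding genes are given for 1 kb alone, so the 2 kb counts have no matched background. The 2 kb counts for H3K36me3 and for no mark were near the 1 kb shares of 53.3% and 20.9%. Shares at 2 kb would differ, so no conclusion can be drawn from this closeness. The H3K36me3 gained with 2 kb covered 42 bp at NARK, 38 bp at NFR5A and 329 bp at ENOD40A and ENOD40B. The 9 calls gained with 2 kb, ENOD40A and ENOD40B counted apart, came from regions that overlap a neighbouring annotated gene. The exception was the H3K56ac near LB1, which overlaps none. With regions that overlap another gene left out, H3K36me3 was called at 0 of the 10 genes and no mark at 7, since SYMRK-ALPHA lost its call. With ENOD40A and ENOD40B as 1 locus, chosen after seeing the data, 5 of 9 loci had no mark and the other counts did not change. No paired analysis was possible because each mark had 1 library and the result comes from no test. Depth is unknown, so it cannot be said how weak a signal would have escaped a call.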
